A study of Mus musculus with 24 samples.

Results

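The 10 genes described here are Dusp1, Dusp2, Dusp4, Dusp5, Dusp16, Zfp36, Zc3h12a, Socs3, Irak3 and Tnip1, a set of feedback phosphatases, mRNA decay factors and other brakes on inflammatory signalling. Each was found by its symbol in both gene tables, so that 10 of 10 were present among 56691 genes, and 10 of 10 had reads in both cell types. Levels are given in FPKM, the deposited fragment counts scaled for gene length and for the total of the library. The deposited study removed Olfml3, which encodes a secreted olfactomedin-domain glycoprotein, from macrophages and asked how they respond to lipopolysaccharide (LPS) without it.

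When LPS binds Toll-like receptor 4, it switches on mitogen-activated protein (MAP) kinases and NF-kappaB, and both drive the transcription of cytokine genes and of the genes that end the response. Among the latter, dual-specificity phosphatases remove the activating phosphates from MAP kinases, and Zfp36 (tristetraprolin) and Zc3h12a (Regnase-1) bind cytokine mRNAs and have them degraded. Irak3 and Tnip1 restrain the path from the receptor to NF-kappaB, while Socs3 blocks signalling from receptors of the interleukin-6 type.

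RNA was sequenced from 24 libraries, 3 in each of 8 groups: wild-type or Olfml3 knockout cells, treated with PBS or with LPS at 100 ng/mL for 4 h, in each of 2 cell types. RAW264.7 is a mouse macrophage line of leukaemic origin, and its knockouts were grown from single cells after lentiviral delivery of a guide RNA, with 2 guides listed by the study and the guide and clone behind these libraries not stated. Bone marrow-derived macrophages (BMDMs) came from male C57BL/6 mice aged 8 weeks, wild type or Olfml3-/- by CRISPR-Cas9, and were differentiated for 6 days with L929 cell supernatant. The tables held between 11638273 and 16478616 counts per library for RAW264.7 and between 17121240 and 22873094 for BMDM. The authors call them biological replicates and do not state whether the 3 libraries of a group came from separate mice or cultures. Groups were taken from the library titles, because the genotype tag contradicted the title in 12 of 24 libraries. Each library was scaled by its own total, and each cell type has its own table. The cell types are set side by side here, never tested against each other.

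The labels were checked first. In BMDMs, Olfml3 stood at 0.61, 0.53 and 0.65 FPKM in wild-type cells and at 0.03, 0.01 and 0.01 FPKM in knockout cells under PBS. In RAW264.7 cells the order was the opposite, with 0.19, 0.15 and 0.15 FPKM in wild-type cells against 0.65, 1.01 and 1.19 FPKM in knockout cells under PBS. With LPS the RAW264.7 knockout libraries reached 18.9, 18.8 and 18.3 FPKM, against 0.13, 0.13 and 0.29 FPKM in wild type. The level of the mRNA does not by itself settle the genotype, and the cause of the higher Olfml3 in these libraries was not tested. The RAW264.7 cells are called the labelled knockout below. The RAW264.7 genotypes also differed in 4 genes of the Y chromosome. Under PBS, Eif2s3y stood at 10.4 ± 0.496 FPKM (mean ± SD, n = 3, as for all values in this form) in wild type, Ddx3y at 4.52 ± 0.550, Kdm5d at 0.770 ± 0.0458 and Uty at 0.640 ± 0.106 FPKM. In the labelled knockout the first 3 were at 0 in every library and Uty reached at most 0.01 FPKM, while in BMDMs all 4 were present in both genotypes. The part of this difference in the RAW264.7 results was not tested.

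Of 9 macrophage markers, 9 had a mean of at least 1 FPKM in BMDMs and 8 in RAW264.7 cells, where Mertk was at 0 in every library. Lyz2 had the highest mean of them over the 12 libraries of each. Summed over the 9, the levels ranged from 1251.5 to 4259 FPKM between RAW264.7 libraries, with group means of 3522 in wild type and 1366 in the labelled knockout under PBS, and 4184 and 1454 with LPS. In BMDMs the means were 15173 and 17492 FPKM under PBS and 12603 and 13201 FPKM with LPS. In bulk RNA, fewer cells of a type and less RNA per cell cannot be told apart. RAW264.7 is a cell line, and among its libraries Lyz2 alone ranged from 259.4 to 2264.2 FPKM, so the sum is no measure of a share of cells. The part of the RAW264.7 marker difference in the RAW264.7 results was not tested. Markers of T cells, B cells, NK cells, neutrophils, dendritic cells and fibroblasts stayed at or under 1.44 FPKM per list and library, apart from the T cell list. There Lck was the most abundant gene, with up to 2.76 FPKM for the list in RAW264.7 libraries, and the list summed to 11.8 FPKM in wild-type and 3.81 FPKM in knockout BMDMs with LPS, while 4 of 6 T cell genes were at 0 in all BMDM libraries.

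The first RAW264.7 labelled knockout library under PBS stood apart from the others of its group. Its variance against them, as a chi-square per degree of freedom over genes, was 88.9 and 90.0, while those others differed from each other by 2.33. The RAW264.7 tests that use this group were therefore also run without it, a setting chosen after seeing the data, while the marker sums and the correlations between genes were not. In wild-type BMDMs with LPS the first library differed from the others by 11.4 and 9.28, and those 2 from each other by 5.14, against 1.80 to 2.82 within the other BMDM groups. Without this library 3 members were called between genotypes with LPS, 8 for LPS in wild type and 3 for the interaction, the same counts as with it.

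**Figure D1:**
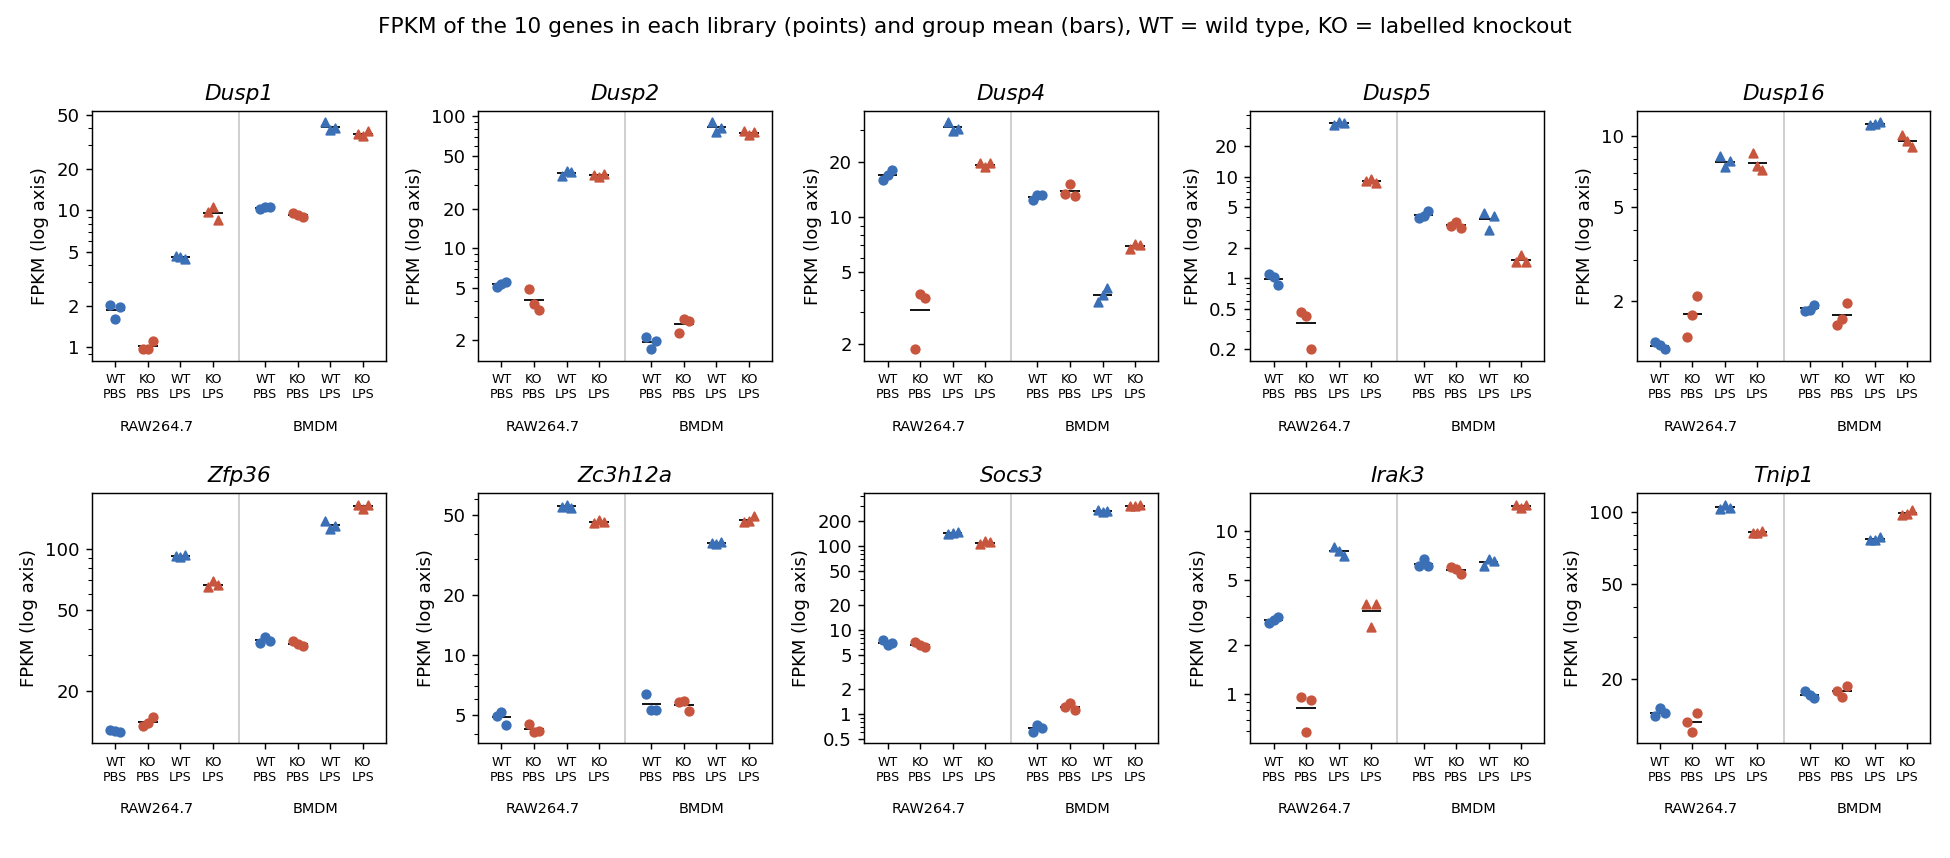
FPKM of each of the 10 genes in all 24 libraries on a log axis, with circles for PBS and triangles for LPS. Blue is wild type, red is the knockout (the labelled knockout in RAW264.7 cells), and a bar marks each group mean (n = 3). With LPS, Dusp4 fell in BMDMs, from a mean of 13.0 to 3.75 FPKM in wild type, and was at 17.1 and 31.2 FPKM in wild-type RAW264.7 cells.

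The response to LPS was compared first, within each genotype. A gene is said to have risen or fallen when limma, fitted to log2(FPKM + 0.1) over the 12 libraries of a cell type, gave a p adjusted over all genes under 0.05 and a fold of at least 1.5. In wild-type RAW264.7 cells 10 of 10 members rose, where 5.80% of all genes rose and 12.5% fell. In the labelled knockout 10 of 10 members also rose, and 10 of 10 without the library that stood apart, against 7.45% of all genes higher and 14.6% lower. No member fell in either, a count of 0 that also stood at an unadjusted p under 0.05 and by edgeR and DESeq2. In wild-type BMDMs 7 members rose and 1 fell, against 7.94% and 32.5% of all genes, and in knockout BMDMs 8 rose and 2 fell, against 8.02% and 30.9%. With median-ratio scaling, by edgeR and by DESeq2 these counts were 9 and 1 in wild type and 8 and 0 in the knockout. With median-ratio scaling 8450 of 26973 genes were called in wild type, 47.95% of them higher, and 8020 in the knockout, 46.78% of them higher.

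The shares of all genes also depend on how libraries are scaled. Scaling each library by the median ratio over genes raised the median log2 change of genes with a mean of at least 1 FPKM by 0.24 and 0.26 in wild-type and labelled knockout RAW264.7 cells. In BMDMs the shift was 0.79 in wild type and 0.68 in the knockout. With it, the share of called genes that were higher moved from 31.68% to 49.71% in wild-type and from 33.79% to 51.68% in labelled knockout RAW264.7 cells. In BMDMs that share was 19.64% in wild type and 20.61% in the knockout without this scaling. Changes of BMDM members with LPS are therefore also given under this scaling below wherever the call or the direction differs.

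**Figure D2:**
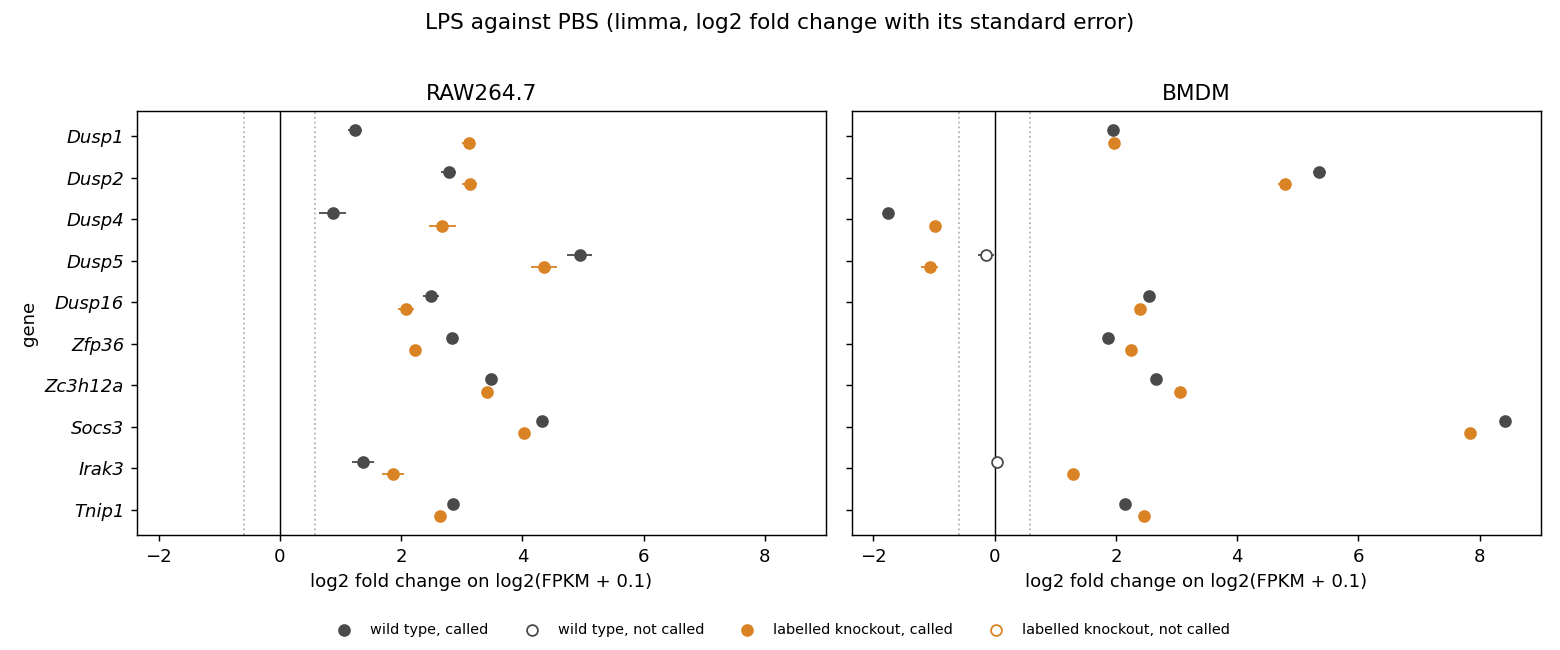
Log2 fold change with LPS against PBS, with its standard error, for the 10 genes in wild type (grey) and knockout (orange). The panels show RAW264.7 cells, where orange is the labelled knockout, and BMDMs. Filled points were called, open points were not, and dotted lines mark a fold of 1.5. In BMDMs, Socs3 lies farthest to the right at 8.41 in wild type and Dusp4 farthest to the left at -1.77; under median-ratio scaling these are 9.16 and -0.98, and wild-type Dusp5 turns from -0.15 to 0.64.

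Dusp1 (ENSMUSG00000024190) encodes the nuclear phosphatase MKP-1, which acts mainly on p38 and JNK. In RAW264.7 cells its levels were 2.04, 1.61 and 1.98 FPKM in wild type and 0.97, 0.98 and 1.12 FPKM in the labelled knockout under PBS. With LPS they were 4.67, 4.58 and 4.44 FPKM in wild type and 9.81, 10.6 and 8.51 FPKM in the labelled knockout. The groups did not overlap in either condition, and their order turned around: the labelled knockout was the lower under PBS and the higher with LPS. The log2 difference between genotypes was -0.81 ± 0.11 (SE, adjusted p = 0.0018) under PBS and 1.06 ± 0.11 (adjusted p = 0.00025) with LPS. The ratio of LPS to PBS means was 2.43 in wild type and 9.41 in the labelled knockout, and the genotype by LPS interaction was 1.87 ± 0.16 (adjusted p = 0.00042). Without the library that stood apart the interaction was 1.83. With a pseudocount of 1 the difference under PBS was -0.51, short of the fold threshold.

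In BMDMs Dusp1 was 10.5 ± 0.178 FPKM in wild-type and 9.27 ± 0.322 FPKM in knockout cells under PBS. With LPS it was 41.0 ± 2.92 FPKM and 36.4 ± 1.51 FPKM. LPS raised it by 1.96 in both genotypes on the log2 scale, and the interaction was 0.01 (adjusted p = 0.99). The difference between genotypes was -0.17 under both conditions, and neither passed the test. With LPS it was -0.32 (adjusted p = 0.0054) with median-ratio scaling, -0.31 by edgeR and -0.33 by DESeq2, all under the fold threshold.

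Dusp1 was the only one of the members with a cAMP response element, TGACGTCA, within 250 bases upstream of its start, among the 9 members with an entry in the RefSeq promoter table (GRCm38.p6; Dusp4 had none, Irak3 had 2). On either strand 1.55% of the 32851 promoters of the table hold this element. The Dusp1 window is chr17:26508473-26508722 on the minus strand, written 5′ to 3′ in the direction of the gene, with the match in capitals 143 to 136 bases upstream of the start:
Dusp1: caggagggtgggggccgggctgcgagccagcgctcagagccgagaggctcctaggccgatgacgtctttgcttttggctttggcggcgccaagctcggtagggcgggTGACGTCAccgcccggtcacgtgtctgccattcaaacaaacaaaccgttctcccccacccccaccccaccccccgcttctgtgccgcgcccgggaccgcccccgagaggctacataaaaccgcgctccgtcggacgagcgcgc

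Dusp2 (ENSMUSG00000027368), also called PAC-1, is an inducible nuclear phosphatase of immune cells. It rose from 5.33 ± 0.254 to 37.4 ± 1.52 FPKM in wild-type RAW264.7 cells and from 4.04 ± 0.807 to 35.8 ± 0.940 FPKM in the labelled knockout. In BMDMs it rose from 1.93 ± 0.211 to 83.1 ± 7.14 FPKM in wild type and from 2.65 ± 0.329 to 75.4 ± 2.62 FPKM in the knockout. Ratios of LPS to PBS means were thus 7.01 and 8.87 in RAW264.7 cells and 43.0 and 28.5 in BMDMs. The BMDM interaction was -0.57 ± 0.15 (adjusted p = 0.062), not called. It was called at -0.68 (adjusted p = 0.034) with median-ratio scaling, at -0.69 by edgeR, at -0.70 by DESeq2, and at -0.67 without the first knockout library under PBS. Under PBS the genotype difference was 0.43 (adjusted p = 0.063) in BMDMs and -0.41 (adjusted p = 0.062) in RAW264.7 cells, neither called. Without the library that stood apart the RAW264.7 difference was -0.56 (adjusted p = 0.00039), under the fold threshold. The RAW264.7 interaction went from 0.35 (adjusted p = 0.56) to 0.50 (adjusted p = 0.024) without it, also under that threshold.

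Dusp4 (ENSMUSG00000031530), the nuclear phosphatase MKP-2, moved with LPS in opposite directions in the 2 cell types, in both genotypes. In RAW264.7 cells under PBS its levels were 16.0, 17.0 and 18.2 FPKM in wild type and 1.88, 3.78 and 3.62 FPKM in the labelled knockout. With LPS they were 33.4, 29.6 and 30.7 FPKM in wild type and 19.8, 18.8 and 19.8 FPKM in the labelled knockout. Wild-type libraries lay above the labelled knockout in both conditions, by far more under PBS. The log2 difference was -2.49 ± 0.22 (adjusted p = 9.3e-05) under PBS, and -2.17 without the library that stood apart, which was the lowest of its group. With LPS it was -0.68 ± 0.22 (adjusted p = 0.049), a call that was lost with a pseudocount of 0.01 (adjusted p = 0.072), with TPM (adjusted p = 0.32), and without each of the 6 libraries in turn (adjusted p from 0.093 to 0.13). The interaction was 1.81 ± 0.31 (adjusted p = 0.017), 1.495 without the library that stood apart, and not called with TPM (adjusted p = 0.071).

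LPS raised Dusp4 by 0.87 (adjusted p = 0.015) in wild-type RAW264.7 cells, a call lost with TPM (adjusted p = 0.063) and without the first wild-type library under PBS or with LPS (adjusted p = 0.054 for each). In the labelled knockout it rose by 2.68. In BMDMs its levels were 12.5, 13.3 and 13.2 FPKM in wild type and 13.5, 15.1 and 13.1 FPKM in the knockout under PBS. With LPS they were 3.44, 3.72 and 4.10 FPKM in wild type and 6.72, 7.10 and 7.08 FPKM in the knockout. The genotypes overlapped under PBS and not with LPS, where all 3 knockout libraries were the higher. LPS lowered Dusp4 by a log2 value of -1.77 in wild type, or -0.98 with median-ratio scaling, a call under both. In the knockout the change was -0.98, but -0.30 with median-ratio scaling, which is under the fold threshold. The genotype difference with LPS was 0.88 ± 0.08 (adjusted p = 8.5e-05), and the interaction was 0.78 ± 0.11 (adjusted p = 0.0030).

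Dusp5 (ENSMUSG00000034765) is a nuclear phosphatase specific for ERK. In RAW264.7 cells its levels under PBS were 1.09, 1.03 and 0.86 FPKM in wild type and 0.47, 0.43 and 0.20 FPKM in the labelled knockout. With LPS they were 32.2, 34.5 and 33.5 FPKM in wild type and 9.03, 9.54 and 8.68 FPKM in the labelled knockout. The labelled knockout was the lower in both conditions, with no overlap. The log2 difference was -1.28 ± 0.21 (adjusted p = 0.0046) under PBS and -1.87 ± 0.21 (adjusted p = 0.00033) with LPS. The first of these was -0.55 with a pseudocount of 1, under the fold threshold, and had an adjusted p of 0.079 when only the groups compared were fitted. LPS raised Dusp5 by 4.94 in wild type and 4.35 in the labelled knockout, the interaction of -0.59 not being called (adjusted p = 0.56). It was called at -1.22 with a pseudocount of 1 and at -0.88 without labelled knockout library 3 under PBS. Other settings gave smaller values, none a call: -0.42 without the library that stood apart, -0.39 with TPM, -0.45 by edgeR and -0.42 by DESeq2.

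In BMDMs Dusp5 stood at 3.92, 4.10 and 4.59 FPKM in wild type and at 3.28, 3.61 and 3.10 FPKM in the knockout under PBS. With LPS its levels were 4.37, 3.00 and 4.10 FPKM in wild type and 1.45, 1.68 and 1.46 FPKM in the knockout. Thus wild-type libraries with and without LPS overlapped, while the knockout libraries with LPS were the lowest of the 12. The genotype difference with LPS was -1.25 ± 0.13 (adjusted p = 0.00025). With LPS, Dusp5 changed by -0.15 in wild type, which was not called, but by 0.64 with median-ratio scaling, 0.64 by edgeR and 0.67 by DESeq2, each a call in the opposite direction. In the knockout it changed by -1.07, and by -0.41 with median-ratio scaling, which is not a call. The interaction was -0.93 ± 0.19 (adjusted p = 0.021). It was lost without 1 of 5 libraries: wild-type library 1 or 2 or knockout library 2 under PBS, or knockout library 1 or 3 with LPS (adjusted p from 0.051 to 0.053).

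Dusp16 (ENSMUSG00000030203), MKP-7, shuttles between nucleus and cytoplasm and acts mainly on JNK and p38. It rose from 1.30 ± 0.0451 to 7.80 ± 0.425 FPKM in wild-type RAW264.7 cells and from 1.76 ± 0.350 to 7.72 ± 0.665 FPKM in the labelled knockout. In BMDMs it rose from 1.86 ± 0.0586 to 11.3 ± 0.154 FPKM in wild type and from 1.74 ± 0.197 to 9.58 ± 0.545 FPKM in the knockout. Neither genotype comparison nor interaction was called in either cell type. In BMDMs with LPS the genotypes differed by -0.24 (adjusted p = 0.061), or -0.39 (adjusted p = 0.0082) with median-ratio scaling, -0.38 by edgeR and -0.39 by DESeq2. Under PBS the RAW264.7 difference was 0.39 (adjusted p = 0.079), and 0.53 (adjusted p = 0.0031) without the library that stood apart. All of these lay under the fold threshold.

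The decay factors moved with LPS in every group. Zfp36 (ENSMUSG00000044786) recruits deadenylases to mRNAs with AU-rich elements. In RAW264.7 cells it stood at 12.9, 12.7 and 12.5 FPKM in wild type and at 13.5, 13.9 and 14.9 FPKM in the labelled knockout under PBS. With LPS it reached 91.7, 91.0 and 93.0 FPKM in wild type and 64.6, 68.9 and 66.1 FPKM in the labelled knockout. Here the labelled knockout libraries were slightly the higher under PBS and the lower with LPS. The difference with LPS was -0.46 ± 0.07 (adjusted p = 0.0014), under the fold threshold, and -0.23 (adjusted p = 0.17) with TPM, while the interaction was -0.61 ± 0.10 (adjusted p = 0.011). That call lay close to the thresholds: it was lost with a pseudocount of 0.01 (adjusted p = 0.053) and with TPM (adjusted p = 0.18). On the fold it was also lost with median-ratio scaling (-0.58), by DESeq2 (-0.58) and without labelled knockout library 3 under PBS (-0.57).

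In BMDMs Zfp36 rose from 35.4 ± 1.13 to 130.2 ± 5.68 FPKM in wild type and from 34.0 ± 0.918 to 161.5 ± 3.72 FPKM in the knockout. The difference with LPS was 0.31 ± 0.05 (adjusted p = 0.0022), a fold under 1.5, and 0.16 (adjusted p = 0.068) with median-ratio scaling. Zc3h12a (ENSMUSG00000042677) is an RNase that cleaves stem-loops in cytokine mRNAs. It rose from 4.85 ± 0.358 to 55.3 ± 1.06 FPKM in wild-type RAW264.7 cells and from 4.26 ± 0.220 to 46.3 ± 0.861 FPKM in the labelled knockout. In BMDMs it rose from 5.65 ± 0.606 to 36.3 ± 0.356 FPKM in wild type and from 5.63 ± 0.356 to 47.5 ± 1.79 FPKM in the knockout. With LPS the genotypes differed by -0.26 ± 0.08 (adjusted p = 0.038) in RAW264.7 cells and by 0.39 ± 0.08 (adjusted p = 0.0073) in BMDMs. Neither reached a fold of 1.5, and they were -0.02 (adjusted p = 0.98) with TPM in RAW264.7 cells and 0.23 (adjusted p = 0.077) with median-ratio scaling in BMDMs.

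Socs3 (ENSMUSG00000053113) binds gp130-type receptors and Janus kinases and inhibits them. Its rise with LPS in BMDMs was the largest log2 change of any member in these data, under each scaling. There its levels were 0.61, 0.73 and 0.68 FPKM in wild type and 1.20, 1.33 and 1.11 FPKM in the knockout under PBS. With LPS they were 270.7, 255.5 and 262.4 FPKM in wild type and 297.1, 297.5 and 311.5 FPKM in the knockout. The knockout libraries were the higher in both conditions, and the difference was called under PBS, at 0.76 ± 0.08 (adjusted p = 0.00035), but not with a pseudocount of 1 (0.40). With LPS it was 0.20 (adjusted p = 0.11). The interaction of -0.56 ± 0.11 (adjusted p = 0.014) missed the fold threshold. It passed with a pseudocount of 0.01 (-0.64), with TPM (-0.61), with median-ratio scaling (-0.66), by edgeR (-0.77) and DESeq2 (-0.78), and without the second wild-type library (-0.62) or knockout library 3 (-0.62) under PBS or knockout library 3 with LPS (-0.59). In RAW264.7 cells Socs3 rose from 7.03 ± 0.441 to 142.8 ± 3.65 FPKM in wild type and from 6.67 ± 0.495 to 110.2 ± 4.28 FPKM in the labelled knockout.

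Irak3 (ENSMUSG00000020227), also known as IRAK-M, is a kinase-dead relative of the IRAK kinases that dampens Toll-like receptor signalling. In RAW264.7 cells its levels were 2.73, 2.85 and 3.00 FPKM in wild type and 0.96, 0.59 and 0.93 FPKM in the labelled knockout under PBS. With LPS they were 8.03, 7.53 and 7.03 FPKM in wild type and 3.58, 2.58 and 3.60 FPKM in the labelled knockout. The labelled knockout was the lower in both, with a log2 difference of -1.70 ± 0.18 (adjusted p = 0.00030) under PBS and -1.20 ± 0.18 (adjusted p = 0.0017) with LPS. LPS raised Irak3 by 1.37 in wild type and by 1.87 in the labelled knockout, with an interaction of 0.50 (adjusted p = 0.56).

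In BMDMs Irak3 stood at 6.15, 6.76 and 6.10 FPKM in wild type and at 6.03, 5.88 and 5.47 FPKM in the knockout under PBS. With LPS its levels were 6.09, 6.79 and 6.57 FPKM in wild type and 14.4, 13.9 and 14.6 FPKM in the knockout. On this scale the wild-type libraries with and without LPS overlapped, while the knockout libraries with LPS lay above all others. The genotype difference with LPS was 1.13 ± 0.06 (adjusted p = 1.1e-05), and the interaction was 1.26 ± 0.09 (adjusted p = 7.9e-05), the most positive among the members in BMDMs. The change with LPS was 0.03 in wild type, not called, and 1.29 in the knockout. With median-ratio scaling both were calls, at 0.82 and 1.97. Under every alternative run here the BMDM genotype difference with LPS kept its sign and its call.

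Tnip1 (ENSMUSG00000020400), also known as ABIN-1, binds ubiquitin chains and the deubiquitinase Tnfaip3 (A20) and limits NF-kappaB. It rose from 14.4 ± 0.587 to 104.6 ± 2.12 FPKM in wild-type RAW264.7 cells and from 13.2 ± 1.21 to 82.1 ± 0.806 FPKM in the labelled knockout. In BMDMs it rose from 17.1 ± 0.509 to 76.5 ± 1.22 FPKM in wild type and from 17.7 ± 0.915 to 98.6 ± 2.78 FPKM in the knockout. With LPS the genotypes differed by -0.35 ± 0.08 (adjusted p = 0.013) in RAW264.7 cells and by 0.36 ± 0.05 (adjusted p = 0.0011) in BMDMs, both short of a fold of 1.5. These were -0.12 (adjusted p = 0.51) with TPM in RAW264.7 cells and 0.21 with median-ratio scaling in BMDMs.

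Since most members rose together with LPS, their promoters were searched for the STAT (GAS) element TTCNNNGAA, the AP-1 element TGANTCA and the NF-kappaB element, on both strands of the 250 bases upstream. The first was found in Socs3, Tnip1 and Zfp36, and 7.02% of all promoters hold it. The NF-kappaB element was found in Tnip1, where 3 overlapping matches cover 58 to 47 bases upstream, and 7.25% of all promoters hold it. No AP-1 element was in the windows of the 9 members, and 6.75% of all promoters hold it. A match is a string of letters and not a shown binding site. The windows with matches are chr11:117969367-117969616, chr11:54962941-54963190 and chr7:28379229-28379478, all on the minus strand and written 5′ to 3′ in the direction of the gene. Distances run from the start in the table, and for Socs3 and Tnip1 the 40 bases searched after it were not found in the GENCODE transcripts of the gene. Capitals mark the STAT element 154 to 146 bases upstream in Socs3, 199 to 191 in Tnip1 and 17 to 9 in Zfp36, and in Tnip1 also, as the second run, the NF-kappaB element:
Socs3: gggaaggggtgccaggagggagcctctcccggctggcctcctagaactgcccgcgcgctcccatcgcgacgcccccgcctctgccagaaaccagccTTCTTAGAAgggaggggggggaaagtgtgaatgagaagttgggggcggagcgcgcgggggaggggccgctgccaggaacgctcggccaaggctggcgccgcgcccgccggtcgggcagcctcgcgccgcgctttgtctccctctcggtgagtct
Tnip1: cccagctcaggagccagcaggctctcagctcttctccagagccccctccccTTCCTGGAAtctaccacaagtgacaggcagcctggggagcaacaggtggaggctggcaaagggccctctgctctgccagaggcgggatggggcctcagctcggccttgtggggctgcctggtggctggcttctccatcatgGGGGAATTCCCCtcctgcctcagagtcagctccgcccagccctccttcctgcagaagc
Zfp36: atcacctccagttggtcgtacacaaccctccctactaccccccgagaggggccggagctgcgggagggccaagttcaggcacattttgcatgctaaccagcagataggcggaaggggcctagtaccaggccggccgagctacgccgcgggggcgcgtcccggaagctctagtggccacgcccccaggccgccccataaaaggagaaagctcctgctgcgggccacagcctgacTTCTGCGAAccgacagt

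Taken by comparison, the labelled knockout of RAW264.7 cells under PBS had 4 members lower than wild type (Dusp1, Dusp4, Dusp5 and Irak3), where 3.77% of all genes were lower. Over all genes 2287 of 26740 were called, 55.97% of them higher. Among genes with at least 1 FPKM in at least 3 libraries it was 2395 of 12290, 59.62% of them higher, with the same 4 members lower. No member was called higher by limma, edgeR or DESeq2, 1 was higher at an unadjusted p under 0.05, and 4.79% of all genes were called higher. The median log2 difference was -0.30 over the members and 0.02 over all genes tested, or -0.11 and 0.17 with TPM. Without the library that stood apart 5524 of 26538 genes were called, 61.02% of them higher, and 4 members were lower, with a median of -0.39: Dusp1 at -0.78, Dusp4 at -2.17, Dusp5 at -1.45 and Irak3 at -1.81. With LPS 1 member was higher (Dusp1) and 3 were lower (Dusp4, Dusp5 and Irak3), against 9.73% and 7.60% of all genes. In both comparisons TPM moved the median of genes with a mean of at least 1 FPKM up, by 0.19 under PBS and 0.23 with LPS, and the share of called genes that were higher from 55.97% to 68.89% and from 56.15% to 74.96%. The directions of the called members were as given under that scaling too, with the call of Dusp4 with LPS lost.

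In BMDMs under PBS 1 member (Socs3) was higher in the knockout, against 0.901% of all genes. By limma no member was lower, against 0.916% of all genes. That count of 0 was also given by edgeR and DESeq2, and 2 members were lower at an unadjusted p under 0.05. With LPS 2 were higher (Dusp4 and Irak3) and 1 was lower (Dusp5), against 3.23% and 1.53%. Median-ratio scaling moved the median of genes with a mean of at least 1 FPKM by -0.15 in that comparison and the share of called genes that were higher from 67.86% to 43.34%, and with it the 3 calls remained.

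**Figure D3:**
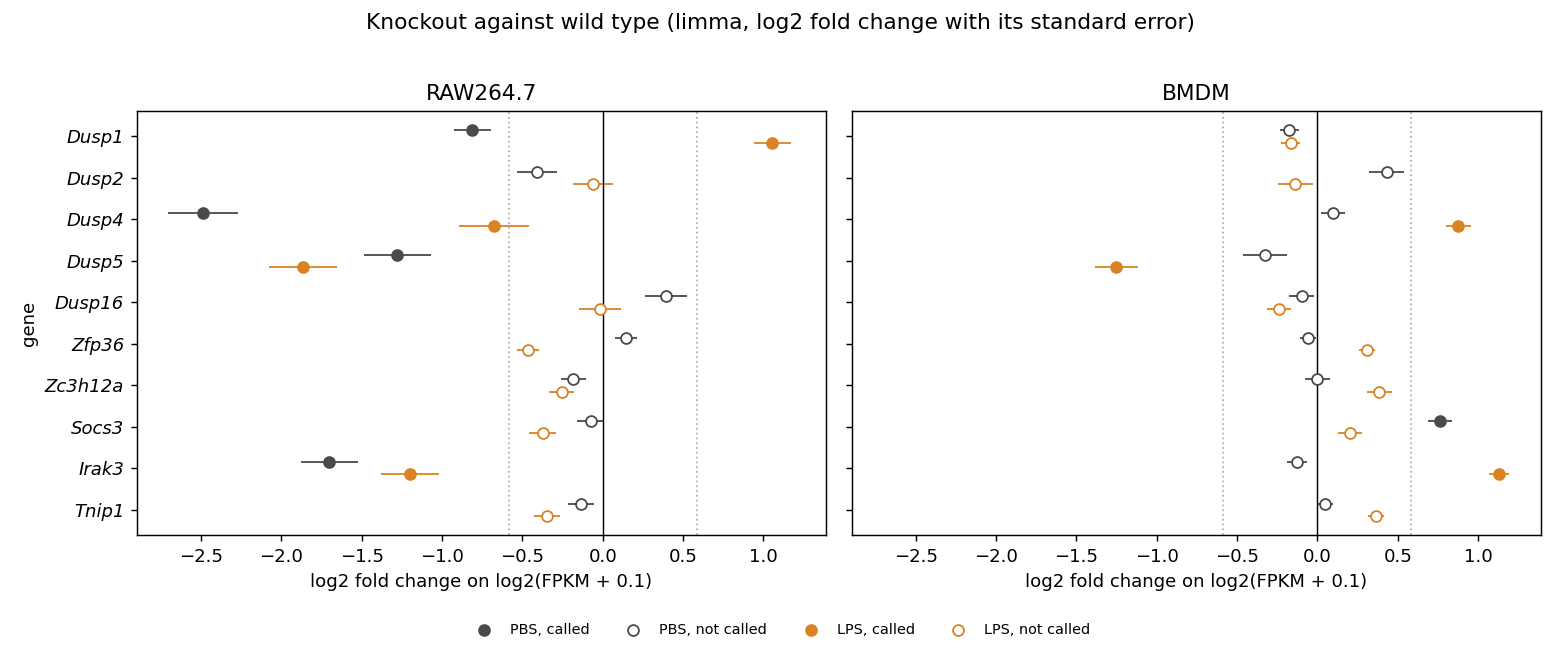
Log2 difference between knockout (labelled knockout in RAW264.7 cells) and wild type, with its standard error, for the 10 genes under PBS (grey) and LPS (orange). The panels show RAW264.7 cells and BMDMs. Filled points were called, open points were not, and dotted lines mark a fold of 1.5. Dusp5 lies to the left with LPS in both panels, at -1.87 and -1.25, and Irak3 lies at -1.20 in one and 1.13 in the other; both genes keep these directions under TPM and median-ratio scaling.

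Interactions of genotype and LPS were called for 2 members upward (Dusp1 and Dusp4) and 1 downward (Zfp36) in RAW264.7 cells, against 0.905% and 1.04% of all genes. Without the library that stood apart the counts were 2 and 1, with Zfp36 at -0.64. In BMDMs they were called for 2 upward (Dusp4 and Irak3) and 1 downward (Dusp5), against 1.91% and 1.02%. Median-ratio scaling shifted the BMDM interaction by -0.11 in the median of genes with a mean of at least 1 FPKM, and the upward share of all calls from 65.15% to 46.78%, and with it Dusp2 and Socs3 were also called downward.

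The members' neighbours in their families were followed by lists chosen with the members, and several lists include members already described. For reading their counts, 5.80% of all genes rose and 12.5% fell with LPS in wild-type RAW264.7 cells, with a median of -0.05, and 7.94% rose and 32.5% fell in wild-type BMDMs, with a median of -0.30. With median-ratio scaling the median over all genes was 0 in both. Of 10 MAP kinase phosphatases, members included, 6 rose and 2 fell with LPS in wild-type RAW264.7 cells, while 4 rose and 5 fell in wild-type BMDMs, or 5 and 4 with median-ratio scaling. These counts include the members Dusp1, Dusp2, Dusp4, Dusp5 and Dusp16, which all rose in wild-type RAW264.7 cells. In wild-type BMDMs Dusp1, Dusp2 and Dusp16 rose and Dusp4 fell, so the rises were mostly those of members. The list's medians were 1.06 and -0.59, or 1.29 and 0.13 with that scaling, so the direction in BMDMs turned. Dusp6, the cytoplasmic phosphatase of ERK, went from 33.5 ± 1.14 FPKM under PBS to 1.19 FPKM with LPS in wild-type BMDMs, and from 34.4 ± 1.88 to 3.13 FPKM in the knockout. Its genotype difference with LPS was 1.33 ± 0.07 (adjusted p = 7.2e-06) in BMDMs. In RAW264.7 cells it was -3.42 ± 0.13 (adjusted p = 4.5e-07), with means of 7.14 FPKM in wild type and 0.58 FPKM in the labelled knockout. Dusp7, another ERK phosphatase, fell in wild-type BMDMs from 26.1 ± 1.58 to 7.39 FPKM.

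Of 9 MAP kinases, the substrates of these phosphatases, 3 fell in wild-type RAW264.7 cells with LPS, and 1 with median-ratio scaling. In wild-type BMDMs 5 fell and 1 rose, or 2 and 1 with that scaling. The medians were -0.35 and -0.72, against -0.05 and -0.30 over all genes, but -0.12 and -0.03 with that scaling, against 0. Mapk14, p38 alpha, fell from 34.2 ± 0.763 to 11.5 FPKM in wild-type BMDMs and from 34.5 ± 0.885 to 17.4 FPKM in the knockout, the latter change -0.98, or -0.29 with median-ratio scaling and not a call. Its genotype difference with LPS was 0.60 ± 0.05 (adjusted p = 4.1e-05), and 0.44 with that scaling, under the fold threshold. In RAW264.7 cells with LPS 3 MAP kinases were lower in the labelled knockout, against 7.60% of all genes: Mapk3 (ERK1, -0.98), Mapk11 (p38 beta, -1.98) and Mapk12 (p38 gamma, -2.24).

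Among 12 RNA-binding decay factors, of which 11 had reads in BMDMs, the paralogues Zfp36l1 and Zfp36l2 moved against Zfp36. In wild-type BMDMs with LPS, Zfp36l1 fell from 68.3 ± 1.14 to 0.813 FPKM and Zfp36l2 from 68.3 ± 1.89 to 12.4 FPKM. In wild-type RAW264.7 cells Zfp36l2 fell from 45.7 ± 1.13 to 10.4 FPKM and Zfp36l1 from 7.40 ± 0.178 to 2.75 FPKM. Zc3h12c, a paralogue of Zc3h12a, rose in wild-type BMDMs from 4.14 ± 0.181 to 19.7 FPKM. In RAW264.7 cells it rose from 2.83 ± 0.165 to 16.6 FPKM in wild type and from 9.86 ± 4.94 to 92.5 FPKM in the labelled knockout. The genotype difference of Zc3h12c with LPS was 2.47 ± 0.35 (adjusted p = 0.0013). By list, 4 rose and 4 fell in wild-type RAW264.7 cells (5 and 2 with median-ratio scaling), and 3 rose and 4 fell in wild-type BMDMs (4 and 2). The members Zfp36 and Zc3h12a are among those that rose in both. The medians were 0.03 and -0.30, or 0.15 and 0.49 with that scaling, so here too the direction in BMDMs turned.

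The general decay machinery was followed as 19 genes of deadenylation, decapping and 5′ to 3′ decay. In the labelled knockout of RAW264.7 cells with LPS 5 of them were higher, where 9.73% of all genes were higher and 7.60% lower. Among these 5 were the scaffold Cnot1 (1.31), the decapping enzyme Dcp2 (1.18), the exonuclease Xrn1 (1.17) and Pan3 (0.67). With TPM 7 of the list were higher, where 3658 of 26740 genes were higher. Cnot1 was lost without 1 of 4 libraries (adjusted p from 0.050 to 0.052) and Xrn1 without 1 (adjusted p = 0.051). By limma 0 of them were lower, with 2 at an unadjusted p under 0.05 and 0 by edgeR and DESeq2. With LPS in wild-type BMDMs 13 fell and 3 rose, but 2 fell and 4 rose with median-ratio scaling, so the counts of this list rest on the scaling. The median was -0.97, or -0.20 with median-ratio scaling. Dcp2 rose there under both, from 10.2 ± 0.477 to 38.8 FPKM.

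In the SOCS family, 8 genes of which Socs3 is a member, 4 rose with LPS in wild-type RAW264.7 cells (5 with median-ratio scaling) and 5 rose and 3 fell in wild-type BMDMs (5 and 2). The medians were 0.63 and 1.51, or 0.86 and 2.15 with that scaling. Socs1, which inhibits signalling from interferon receptors, went from 0.173 ± 0.0666 to 32.4 FPKM in wild-type and from 0.123 ± 0.0416 to 15.6 FPKM in knockout BMDMs. With LPS its genotype difference was -1.04 ± 0.20 (adjusted p = 0.0053) in BMDMs and -0.72 ± 0.17 (adjusted p = 0.013) in RAW264.7 cells, the latter lost with TPM (-0.51, adjusted p = 0.11). Of 8 receptors and kinases that Socs3 acts on, the kinase Jak2 rose in wild-type BMDMs from 10.95 ± 0.372 to 196.7 FPKM, and the receptor chain Il6ra fell from 16.4 ± 0.685 to 1.06 FPKM. In wild-type RAW264.7 cells Jak2 rose from 4.68 ± 0.150 to 21.2 FPKM and Il6ra fell from 13.1 ± 0.625 to 3.34 FPKM. In this list 3 rose and 2 fell in wild-type RAW264.7 cells, and 4 rose and 2 fell in wild-type BMDMs (5 and 2 with median-ratio scaling). The medians were 0.22 and 0.43, or 0.35 and 1.23 with that scaling.

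Of 22 other brakes on Toll-like receptor and NF-kappaB signalling, Irak3 and Tnip1 among them, 12 rose and 3 fell with LPS in wild-type RAW264.7 cells. In wild-type BMDMs 10 rose and 8 fell, or 13 and 4 with median-ratio scaling. The medians were 1.10 and 0.19, or 1.34 and 0.99 with that scaling. Tnfaip3, the deubiquitinase A20, rose from 1.47 ± 0.172 to 36.5 FPKM in wild-type RAW264.7 cells and from 2.19 ± 0.240 to 79.8 FPKM in the labelled knockout. The genotypes differed there by 1.13 ± 0.10 (adjusted p = 8.8e-05) with LPS. In BMDMs it reached 199.9 FPKM in wild type and 203.5 FPKM in the knockout. Inpp5d, the lipid phosphatase SHIP-1, fell in wild-type BMDMs from 42.9 ± 0.609 to 2.43 FPKM.

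Lastly, 19 transcripts known as targets of Zfp36 or Zc3h12a were followed, since decay factors act on mRNA levels. With LPS 18 of them rose in wild-type RAW264.7 cells, and 18 rose and 1 fell in wild-type BMDMs. With median-ratio scaling 19 rose in RAW264.7 cells, as by DESeq2, but 17 by edgeR. In BMDMs 18 rose and 0 fell with median-ratio scaling, by edgeR and by DESeq2. Between genotypes with LPS, 3 were higher and 6 lower in the labelled knockout of RAW264.7 cells, against 9.73% and 7.60% of all genes, with a median of -0.06, or 0.17 with TPM. In BMDMs 9 were higher and 1 was lower in the knockout, against 3.23% and 1.53% of all genes, with a median of 0.62 beside 0.04 over all genes, and 6 were higher and 1 was lower with median-ratio scaling. Whether any of these differences reflects decay was not tested, since only mRNA levels were measured.

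The cytokine Csf2 (GM-CSF) stood at 54.8 FPKM in wild-type and 0.987 FPKM in labelled knockout RAW264.7 cells with LPS, a log2 difference of -5.69 ± 0.41 (adjusted p = 1.8e-05). In BMDMs the order was the opposite, with 0.280 FPKM in wild type and 2.31 FPKM in the knockout and a difference of 2.67 ± 0.19 (adjusted p = 3.3e-05). The chemokine Cxcl2 showed the same pair of orders, with 1670.5 and 423.7 FPKM in RAW264.7 cells and 29.2 and 112.0 FPKM in BMDMs. Ccl2, a monocyte attractant, stood at 115.9 and 3.53 FPKM in RAW264.7 cells. Ier3, an early response gene and target of Zfp36, was at 552.8 and 74.8 FPKM there. Il10, an anti-inflammatory cytokine, was lower with LPS in the labelled knockout of RAW264.7 cells, at 0.210 FPKM against 2.42, and in knockout BMDMs, at 12.5 FPKM against 20.4. Il6 was at 24.8 and 100.1 FPKM in RAW264.7 cells, a difference of 2.01 ± 0.14 (adjusted p = 1.7e-05).

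**Figure D4:**
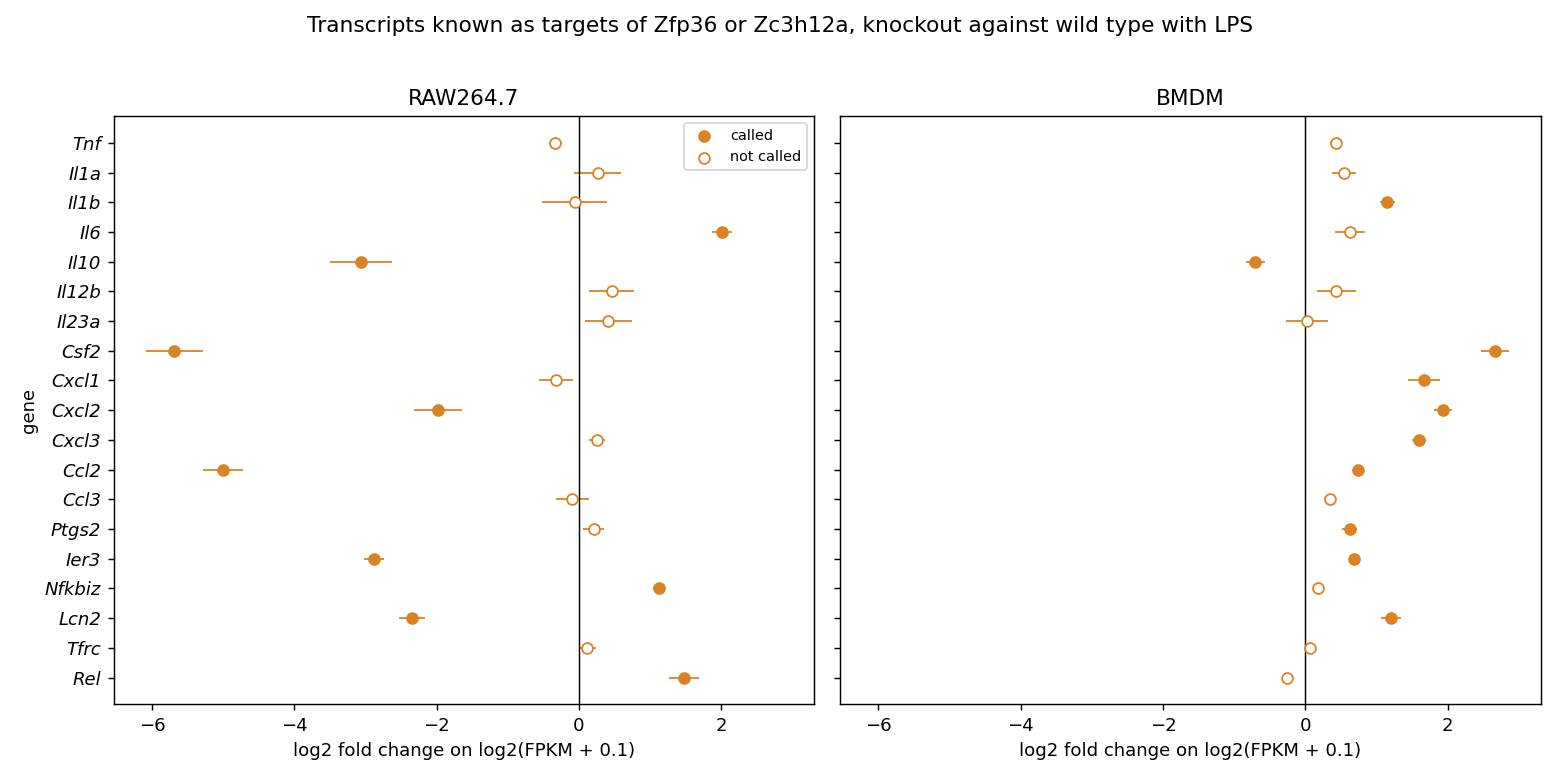
Log2 difference between knockout and wild type with LPS, with its standard error, for 19 transcripts known as targets of Zfp36 or Zc3h12a; filled points were called and open points were not. The RAW264.7 values are for the labelled knockout. Csf2 lies at -5.69 in RAW264.7 cells and at 2.67 in BMDMs, and 9 transcripts were called higher in BMDMs, or 6 with median-ratio scaling.

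As a check that LPS acted, 8 of 8 response genes rose in each of the 4 comparisons of LPS with PBS, among them Acod1, from 2.76 ± 0.775 to 2199.9 FPKM in wild-type RAW264.7 cells and from 1.29 ± 0.0961 to 1892.8 FPKM in wild-type BMDMs.

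By the correlation of log2 levels over the 12 libraries of a cell type, the genes most like each member were sought among 11212 other genes in RAW264.7 cells and 10473 in BMDMs. The 12 libraries share their cell type, form 4 groups, and separate mostly by LPS, so these values describe the pattern over groups. Dusp2 in RAW264.7 cells was most like Junb (r = 0.999), and Zc3h12a was most like Tnf (r = 0.999) and then Socs3 (r = 0.999). Irak3 in RAW264.7 cells was most like the LPS co-receptor Cd14 (r = 0.986), and Dusp4 like the adhesion molecule Alcam (r = 0.994). There Dusp1 was most like Gm34643 (r = 0.987) and Dusp5 like Apol9a (r = 0.997). Only some of the closest genes are named. In BMDMs Zc3h12a was most like Triobp (r = 0.999) and then Il1b (r = 0.999), and Il1b was also the gene most like Tnip1 (r = 0.999). Zfp36 was most like Vasp (r = 0.999). Irak3 was most like Ptafr, the receptor for platelet-activating factor (r = 0.988), Socs3 like Sod2 (r = 0.9996), Dusp1 like Atf3 (r = 0.999) and Dusp5 like AB124611 (r = 0.968). The sequences of the proteins were not analysed here.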

How the data were processed

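The deposited tables, made by the authors from poly(A) RNA sequenced at GENEWIZ, gave counts and FPKM for 56691 genes in 24 libraries. The counts are the deposited fragments per gene, and the FPKM were made by the authors from them: recomputed from the counts, they matched within 1% for 99.879% of 122116 RAW264.7 values and 99.507% of 123096 BMDM values over 50 counts. The totals were 11638273 to 16478616 per library in RAW264.7 and 17121240 to 22873094 in BMDM, which limits precision for genes under 1 FPKM.

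Groups followed the titles, since the genotype tag contradicted them in 12 libraries. For each cell type limma 3.58.1 (R 4.3.3) was fitted to log2(FPKM + 0.1) of 12 libraries, over genes above 0 in at least 1 library (26740 in RAW264.7, 26973 in BMDM), with p-values adjusted by Benjamini and Hochberg over all of them. Called genes had an adjusted p under 0.05 and a fold of at least 1.5. The code was tested on simulated data.

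Alternatives were pseudocounts of 0.01 and 1, a filter at 1 FPKM in 3 libraries, TPM, median-ratio scaling, an intensity trend, edgeR 4.0.16 with and without its filter, DESeq2 1.42.0, a block for the replicate number, a fit limited to the libraries of the contrast, adjusted p alone, and each library left out. Applying them to the lists and the named list genes, and leaving out the first RAW264.7 labelled knockout library under PBS throughout, was chosen after seeing the data.

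The members and lists were chosen with earlier results of these data known. Named genes were the 10 members, Olfml3, up to 4 called genes per list and comparison with the largest log2 change, and the 3 genes with the highest Pearson correlation to each member among genes with a mean of at least 1 FPKM. The 4 Y-linked genes were chosen after their values were seen. Lists were the MAP kinase phosphatases, MAP kinases, RNA-binding decay factors, general decay machinery, SOCS family, other brakes, target transcripts, receptors and kinases of Socs3, LPS response genes and cell type markers. Tables and figures were made with Python 3.11.15, pandas 2.3.3, numpy 2.4.6 and matplotlib 3.10.9.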

Additional observations from a re-analysis of the deposited data

Results flagged for a closer look

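Some results stood out because the effect of LPS differed between genotypes by the interaction test, in log2 units. In RAW264.7 cells these were Dusp1 at 1.87, Dusp4 at 1.81 and Zfp36 at -0.61. In BMDMs they were Dusp4 at 0.78, Dusp5 at -0.93 and Irak3 at 1.26.

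Others stood out because the direction was opposite in the 2 cell types while the libraries of the groups did not overlap in either. The share of all genes that meet this rule was not counted, and it admits differences that were not called. The difference between cell types was not tested, since each has its own table, so that cell type and table cannot be told apart. With LPS, the knockout against wild type gave for Dusp1 1.06 in RAW264.7 cells and -0.17 in BMDMs. For Dusp4 it gave -0.68 and 0.88, and for Irak3 -1.20 and 1.13. For Zfp36 the values were -0.46 and 0.31, and for Zc3h12a -0.26 and 0.39. For Socs3 they were -0.37 and 0.20, and for Tnip1 -0.35 and 0.36. With TPM the RAW264.7 values were -0.23 for Zfp36, -0.02 for Zc3h12a, -0.14 for Socs3 and -0.12 for Tnip1, none with an adjusted p under 0.05. With median-ratio scaling the BMDM values were 0.16, 0.23, 0.04 and 0.21 in the same order. Under PBS, Dusp2 gave -0.41 and 0.43. By limma these had adjusted p of 0.062 and 0.063, and Dusp1 and Socs3 in BMDMs with LPS had 0.097 and 0.11, none a call. With LPS only Dusp4 and Irak3 were called in both cell types.

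LPS against PBS in wild type gave 0.87 for Dusp4 in RAW264.7 cells and -1.77 in BMDMs. In the knockouts it gave 2.68 and -0.98 for Dusp4 and 4.35 and -1.07 for Dusp5, but with median-ratio scaling the BMDM values were -0.30 and -0.41, neither a call. The RAW264.7 knockout values come from cells labelled knockout, where Olfml3 goes against the label.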

How the results depend on the processing

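Of 1900 member values under alternatives, 1831 kept their side of the threshold, 23 of these changing sign without a call, 30 gained a call, 36 lost one and 3 reversed, and the cause was not tested. The 3 were Dusp5 in wild-type BMDMs with LPS, at -0.15 in limma but 0.64 with median-ratio scaling, 0.64 by edgeR and 0.67 by DESeq2. The BMDM interaction of Olfml3, called at 0.83, was -1.15 by edgeR, -1.14 without its filter and -1.30 by DESeq2, none of them a call, with 6 and 1 counts in all in the knockout under PBS and with LPS.

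Counts of called members changed as follows, beside the block below. RAW264.7 under PBS went from 4 to 2 with a pseudocount of 1 and to 3 in the fit of those groups alone. With LPS they went from 4 to 3 with a pseudocount of 0.01, TPM or any 1 of the 6 libraries compared left out, and to 8 by adjusted p alone. For LPS in wild-type RAW264.7 they went from 10 to 9 with TPM or without the first library of either group. The RAW264.7 interaction went from 3 to 4 with a pseudocount of 1, to 2 with 0.01, median-ratio scaling or DESeq2, and to 1 with TPM. BMDMs under PBS went from 1 to 0 with a pseudocount of 1, and with LPS from 3 to 6 by adjusted p alone. For LPS in wild-type BMDMs they went from 8 to 10 with median-ratio scaling, edgeR and DESeq2, and to 9 by edgeR without its filter. In knockout BMDMs they went from 10 to 8 with these 4. The BMDM interaction went from 3 to 5 with these 4, to 4 with a pseudocount of 0.01 or TPM, and to 6 by adjusted p alone. Leaving out a library gave 2 to 4 there.

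Replicate numbers did not pair the libraries (correlations of deviations from -0.065 to 0.089). With the number as a block, called members went from 4 to 3 in RAW264.7 with LPS, where Dusp4 was lost. In the BMDM interaction they went from 3 to 2, where Dusp5 was lost, and no other member call changed. How independent the 3 libraries are is not stated: the common biological coefficient of variation was 12.66% in RAW264.7 and 3.661% in BMDM. All-gene calls in RAW264.7 under PBS went from 2287 to 5524 without the library that stood apart. The RAW264.7 labelled knockout may be 1 clone, so clone and genotype cannot be told apart.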
